A study of Homo sapiens with 8 samples.

Results

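The genes described here are those whose response to Acetalax differed between BT549 and MDA-MB468 cells, both in parental cells and in chronically exposed (CE) cells. A response is the log2 value of a gene after Acetalax minus that of the control of the same cells, on the scale log2(CPM + 0.5), where CPM is a gene's count relative to the total of its library, scaled to 1000000 counts and corrected by edgeR's TMM factors, a trimmed mean of gene ratios. A gene was a member when its BT549 response exceeded its MDA-MB468 response by at least 1, or fell short of it by at least 1, in parental and again in CE cells. Of 14030 genes that averaged 1 CPM or more over the libraries and passed edgeR's filter on low counts, 451 were members. The BT549 response was the higher for 166 of them (1.18% of the 14030 genes), and the MDA-MB468 response for 285 (2.03%). Measured responses chose these genes, so the size of the difference in each member is a description and carries no test of its own.

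BT549 and MDA-MB468 are established human triple-negative breast cancer cell lines, and Acetalax (oxyphenisatin acetate) is a laxative that the study examined for its action on such cells through the cation channel TRPM4. Each line gave 4 libraries of polyadenylated RNA: parental cells without drug, parental cells after 1 μmol/L Acetalax for 6 hours, CE cells without drug and CE cells after the same treatment. The CE cells had been selected in rising concentrations, were kept at 40 μmol/L Acetalax, were free of it for 2 weeks before use, and are called resistant clones by the study, so each CE arm stands for 1 selected population. There was 1 library for each of the 8 conditions, and the parental and CE pairs of a line therefore served as its 2 replicates. Nothing in the labels says that they came from separate cultures. The spread behind each p-value includes any difference between parental and CE cells in their response to Acetalax, but not a difference in their level.

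BT549 is a mesenchymal-like line and MDA-MB468 an epithelial line with amplified EGFR, a receptor tyrosine kinase. A few hours of treatment reads mainly early transcription: immediate early genes encode factors that need no new protein to be induced, stress pathways act through ATF4, XBP1 and NRF2, and YAP and SRF carry cell shape and tension to the genome. Keratins, in contrast, are filament proteins whose genes are silent in most mesenchymal cells.

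Library totals ran from 42261122 to 54241728 counts on genes. Of 32 epithelial markers, 29 were more than 2-fold higher in every MDA-MB468 library than in all BT549 libraries, and of 41 mesenchymal and matrix markers 26 were higher in BT549 by the same measure, so the line labels held in each library. Of 16 blood and vessel markers, 13 were under 1 CPM in all 8 libraries. By the measure used above, 3 of the 16 were higher in MDA-MB468. The 16 together summed to between 1.9 and 3.8 CPM in BT549 libraries and between 24.2 and 52.5 CPM in MDA-MB468 libraries. The share of counts on mitochondrial-encoded genes went from 7.32% to 7.29% in parental BT549, from 5.08% to 4.00% in BT549 CE, from 10.0% to 7.89% in parental MDA-MB468 and from 9.98% to 8.87% in MDA-MB468 CE cells, and its part in the results was not tested. The number of genes with a response of at least 1 in size differed greatly between cells, with 349 in parental BT549, 1652 in BT549 CE, 929 in parental MDA-MB468 and 466 in MDA-MB468 CE cells.

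The difference between the lines was tested for every gene with edgeR's quasi-likelihood test and Benjamini-Hochberg adjustment, at a threshold of 0.05. Of 19693 genes tested, 105 (0.533%) had a higher response in BT549 and 246 (1.25%) a higher response in MDA-MB468. In 293 of these 351 genes the fitted responses of the lines had opposite signs, whatever their size. A test of the difference favours such genes, and the share over all genes was not counted. Within the lines, 2558 genes changed in BT549 (13.0%), 1127 higher (5.72%) and 1431 lower (7.27%) after Acetalax, and 1307 changed in MDA-MB468 (6.64%), 833 higher (4.23%) and 474 lower (2.41%). With total counts in place of TMM the split was 847 higher and 2273 lower in BT549, and 751 higher and 653 lower in MDA-MB468. This scaling moved the median response of all 14030 genes in BT549 CE cells from -0.05 to -0.17. The count of 351 rested on the settings: without the parental MDA-MB468 pair 100 genes were called, without the parental BT549 pair 1360, without the BT549 CE pair 852, and among genes of at least 5 CPM alone 25. No called gene changed sign in any of these fits. Of the genes named below that passed the test, NR4A2, HMOX1, FOSB, CYP1A1, LPAR1, CLMP, ANK1, CPA4, RIN1, AKAP12, MAMLD1 and STK10 also passed it among genes of at least 5 CPM alone. The other 29 tested there missed it, with adjusted p from 0.0521 to 0.0970, PLEC, BCL6, NR4A1, WNT5A, IRS1 and EEPD1 among them at 0.0521; PIK3IP1, EGR2 and ASNS lay under 5 CPM.

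Differences found in parental cells were looked for in CE cells, whose libraries are separate. Of 362 genes with a difference of at least 1 toward BT549 in parental cells, 87.6% had a difference of the same sign in CE cells, compared with 45.5% of all genes, and 45.9% were again past 1, compared with 4.50%. Toward MDA-MB468 the parental choice held 671 genes, of which 82.7% kept the sign in CE cells (54.5% of all genes) and 42.5% were past 1 (7.86%). Only 4 and 22 of these genes were past 1 in the opposite direction in CE cells. Chosen the other way, 26.3% of 631 genes and 25.9% of 1102 genes past 1 in CE cells were past 1 in parental cells. Across the 11135 genes that averaged 5 CPM or more, the parental and CE differences had a Pearson r of 0.46, given as a description because genes are not independent replicates and all points come from the same 8 libraries.

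**Figure D1:**
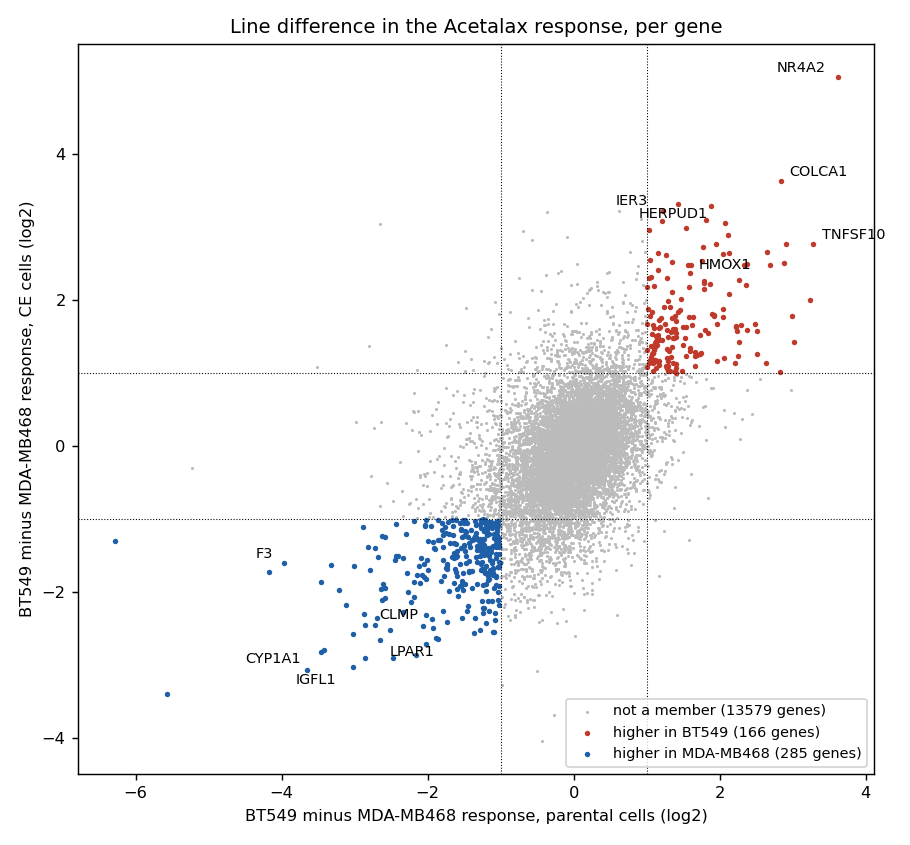
BT549 minus MDA-MB468 response (log2) of each of the 14030 genes in parental cells (x axis) and CE cells (y axis), with dotted lines at a difference of 1 in either direction. The 166 members higher in BT549 lie at the upper right and the 285 members higher in MDA-MB468 at the lower left, with NR4A2 farthest out on the BT549 side at 3.62 and 5.05.

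At the median, the members higher in BT549 had positive responses in BT549 and negative responses in MDA-MB468. Their median response was 0.69 in parental BT549 and 0.70 in BT549 CE cells, and -0.86 and -0.87 in MDA-MB468. Both MDA-MB468 responses were below 0 in 131 of the 166, and both BT549 responses above 0 in 121. For the members higher in MDA-MB468 the medians were -0.47 and -0.75 in BT549 and 0.98 and 0.83 in MDA-MB468. Both MDA-MB468 responses were above 0 in 253 of the 285, and both BT549 responses below 0 in 213. The rule favours such signs, which were counted at any size. Their share over all genes was not counted, and nothing is read from them. In each of the 451 members, both responses of the higher line lay above both of the lower line; among all genes this was so for 27.4% toward BT549 and 29.0% toward MDA-MB468. The rule makes such a separation likely, and nothing is read from it.

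Many members were expressed in only 1 of the lines. Both lines had a mean of at least 1 CPM for 86 of the 166 members higher in BT549 and for 204 of the 285 members higher in MDA-MB468, compared with 83.7% of all 14030 genes. Under 1 CPM in BT549 were 59 and 57 members, and under 1 CPM in MDA-MB468 21 and 24. In such genes the difference is the response of the expressing line, and no fold is given for the silent one. edgeR called 73 and 167 members, of which 56 and 157 were expressed in both lines; the test used the same libraries as the rule, so these calls add no support. Where both lines expressed the member, the untreated level was higher in BT549 for 27 of 86 members higher in BT549 and for 122 of 204 members higher in MDA-MB468, compared with 54.3% of all genes expressed in both lines. Level and response share the control library.

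A change in opposite directions, at least 0.5 up in both pairs of a line and at least 0.5 down in both pairs of the other, was found in 19 members higher in BT549 and 31 higher in MDA-MB468. Responses in a single line, at least 1 in size there and under 0.5 in the other, made up 30 (BT549) and 49 (MDA-MB468) of the members higher in BT549. Among the members higher in MDA-MB468 these were 37 and 76. The remaining members comprised 7 and 6 with all 4 responses of the same sign, and 61 and 135 of mixed pattern. Counted over all classes, the 4 responses shared a sign in 20 and 26 members. Both lines had a mean of at least 1 CPM for 12 of the 19 and 28 of the 31 opposite members. Of the single-line members this held for 17 of the 30 and 7 of the 49 higher in BT549. On the MDA-MB468 side it held for 24 of the 37 and 34 of the 76. In single-line members without it, a line was under 1 CPM, so they do not show a response restricted to 1 line.

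NR4A2, an orphan nuclear receptor of the immediate early class, had the largest smaller difference over parental and CE cells among members with at least 5 CPM, 3.62 on the log2(CPM + 0.5) scale. It went from 3.87 to 22.2 CPM in parental BT549, from 2.14 to 26.1 CPM in BT549 CE, from 17.2 to 6.96 CPM in parental MDA-MB468 and from 26.1 to 7.61 CPM in MDA-MB468 CE cells. Acetalax thus reversed the order of the lines: both treated BT549 libraries lay above both treated MDA-MB468 libraries, and the controls stood the other way round. The fitted difference was 4.60 ± 0.39 (log2, SE; adjusted p = 0.0112).

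HMOX1 encodes heme oxygenase 1, which degrades heme and is induced by NRF2. Its level rose in BT549 from 223 to 841 CPM in parental and from 227 to 979 CPM in CE cells. In MDA-MB468 it was 12.9 CPM before and 7.56 CPM after treatment in parental cells, and 25.5 and 17.3 CPM in CE cells. The BT549 libraries were far above those of MDA-MB468 throughout, and Acetalax widened the gap. The difference was 2.68 ± 0.15 (adjusted p = 0.00283), the smallest adjusted p of the test together with CLMP, below. HMOX1 was the only member among 26 NRF2 targets tested, and the list's median difference was 0.30 in parental and 0.27 in CE cells (all genes tested, 0.05 and -0.03).

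The immediate early group held the largest number of members of any list, 7 of 30 genes tested, all higher in BT549. Across the 30 genes edgeR called 6 higher in BT549 and 0 higher in MDA-MB468 (0.533% and 1.25% of all genes tested). At an unadjusted p under 0.05 these were 14 and 2 (6.89% and 10.4%), and by DESeq2 11 and 0 (1.31% and 3.47%). In BT549, 21 of the 30 rose (5.72% of all genes tested). In MDA-MB468, 5 rose and 3 fell (4.23% and 2.41%). The list's median response was 1.13 in parental and 1.5 in CE BT549 cells, and 0.53 and 0.14 in MDA-MB468. Its median difference, taken over the differences of the single genes, was 0.15 in parental cells and 1.20 in CE cells.

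FOSB, a subunit of the AP-1 transcription factor, rose from 12.9 to 37.0 CPM and from 23.7 to 65.6 CPM in parental and CE BT549 cells. In MDA-MB468 it stood at 32.7 and 26.0 CPM in parental and at 45.9 and 41.6 CPM in CE cells before and after Acetalax. In each state the BT549 control lay below the MDA-MB468 control and the treated BT549 library above the treated MDA-MB468 library, with a difference of 1.73 ± 0.19 (adjusted p = 0.0146). NR4A1, a paralog of NR4A2, rose in BT549 toward the MDA-MB468 level, with responses of 1.28 and 1.76 in BT549 and -0.29 and -0.42 in MDA-MB468 (difference 1.97 ± 0.23, adjusted p = 0.0214). EGR2, a zinc finger factor, had responses of 1.25 and 1.59 in BT549 and -1.01 and -0.68 in MDA-MB468 (difference 3.03 ± 0.38, adjusted p = 0.0232, and 0.0546 without the parental MDA-MB468 pair), at levels between 0.322 and 12.2 CPM.

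ATF3 and FOS, named here after their values were seen, reached membership by different routes. ATF3, a stress-induced partner of AP-1, rose in BT549, from 31.8 to 131 CPM and from 23.7 to 151 CPM, and in MDA-MB468 went from 19.5 to 27.3 CPM in parental and from 18.8 to 14.7 CPM in CE cells. FOS was instead lower after Acetalax in MDA-MB468, 192 and 38.9 CPM in parental and 163 and 68.5 CPM in CE cells, while BT549 held 31.4 and 46.0 CPM in parental and 121 and 103 CPM in CE cells. FOS missed the threshold (adjusted p = 0.0512).

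Genes of the amino acid and secretory stress programmes were higher in BT549 in smaller numbers. CHAC1 encodes an enzyme that degrades glutathione and is driven by ATF4. It went from 16.6 to 31.2 CPM and from 10.1 to 39.4 CPM in parental and CE BT549 cells, and from 15.9 to 7.34 CPM and from 19.0 to 10.3 CPM in MDA-MB468. The control levels overlapped and the treated levels did not, with a difference of 2.43 ± 0.35 (adjusted p = 0.0339, and 0.0546 without the parental MDA-MB468 pair). ASNS, asparagine synthetase, had responses of 1.74 and 2.54 in BT549 and 0.31 and -0.77 in MDA-MB468 (adjusted p = 0.0491, and 0.0764 without the MDA-MB468 CE pair). These were the 2 members among 29 ATF4 targets tested, whose median difference was 0.19 in parental and 1.08 in CE cells. At an unadjusted p under 0.05, 15 of the 29 were higher in BT549 and 1 in MDA-MB468 (6.89% and 10.4% of all genes tested).

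HERPUD1 and XBP1 were the 2 members among 24 genes of endoplasmic reticulum chaperones and the unfolded protein response. HERPUD1, a component of the machinery that clears misfolded proteins from the endoplasmic reticulum, rose from 62.1 to 210 CPM and from 73.2 to 590 CPM in BT549. In MDA-MB468 it was 90.2 and 72.1 CPM in parental and 89.7 and 86.5 CPM in CE cells, a spread far below the BT549 response (difference 2.58 ± 0.36, adjusted p = 0.0304, and 0.0517 without the parental MDA-MB468 pair). XBP1, a factor of the same response, was lower after treatment in MDA-MB468, from 366 to 216 CPM and from 394 to 200 CPM, and higher in BT549, from 112 to 139 CPM and from 93.1 to 170 CPM (difference 1.46 ± 0.20, adjusted p = 0.0297, and 0.0571 without the parental MDA-MB468 pair). The list's median difference was -0.15 in parental and 0.09 in CE cells. Of its genes, 9 rose in BT549 and 8 in MDA-MB468 (5.72% and 4.23% of all genes tested). Most of the list thus did not follow these members.

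Of 21 FOXO and energy stress genes tested, 4 were members higher in BT549, a FOXO factor itself among them, and 1 higher in MDA-MB468. FOXO factors are active when growth factor signalling is low. BCL6, a transcriptional repressor, rose in BT549 from 62.4 to 92.0 CPM and from 53.6 to 117 CPM and fell in MDA-MB468 from 54.7 to 23.4 CPM and from 47.6 to 15.3 CPM. All controls lay between all treated BT549 and all treated MDA-MB468 libraries (difference 2.28 ± 0.24, adjusted p = 0.0146). PIK3IP1, an inhibitor of phosphoinositide 3-kinase, had responses of 1.81 and 1.21 in BT549 and -1.10 and -1.55 in MDA-MB468 (difference 3.21 ± 0.35, adjusted p = 0.0146). TSC22D3, a leucine zipper protein induced by glucocorticoids, fell in MDA-MB468 from 215 to 61.6 CPM and from 140 to 24.3 CPM, with BT549 libraries between 2.67 and 4.53 CPM (difference 2.01 ± 0.28, adjusted p = 0.0297). IRS1, the adaptor of the insulin receptor, went the opposite way, with responses of 1.38 and 1.31 in MDA-MB468 and -0.71 and -0.22 in BT549 (difference -1.83 ± 0.21, adjusted p = 0.0205). The list's median difference was 0.08 and 0.13 in parental and CE cells.

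Several leading members on the BT549 side were transcripts of MDA-MB468 that Acetalax lowered. TNFSF10 encodes the death ligand TRAIL. It went from 94.0 to 12.6 CPM in parental and from 118 to 12.6 CPM in CE cells of MDA-MB468 (adjusted p of that line's response 0.0031). In BT549 it did not exceed 0.364 CPM, and its line difference missed the threshold (adjusted p = 0.0831). RCSD1, a regulator of actin capping, went from 46.5 to 11.3 CPM and from 53.7 to 11.7 CPM in MDA-MB468. In BT549 it had no counts in either control, so its fitted difference of 7.82 depends on the prior count of the fit and is no measure of size (adjusted p = 0.0344, and 0.147 without the BT549 CE pair). ZBTB7C, a zinc finger protein, went from 26.5 to 3.68 CPM and from 18.2 to 3.01 CPM in MDA-MB468 and reached at most 0.0228 CPM in BT549. Its line difference missed the threshold (adjusted p = 0.268).

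Some of these transcripts were neighbours on the genome. COLCA1 and COLCA2, which overlap on opposite strands of chromosome 11 (hg19), went from 37.8 to 4.40 and from 30.7 to 2.03 CPM (COLCA1) in MDA-MB468. COLCA2 went from 18.0 to 3.16 and from 16.8 to 2.59 CPM there, and the line difference of neither gene passed the test. Their flanking genes C11orf53, with responses of -1.38 and -1.61, and POU2AF1, with -1.92 and -1.89, were members as well, and all 4 genes were at or near 0 in BT549. POU2AF1, COLCA2 and C11orf53 encode coactivators of POU-domain factors. The strand column used for counting is not stated, so reads of COLCA1 and COLCA2 cannot be told apart. TLR1 and TLR6, 2 overlapping Toll-like receptor genes on chromosome 4, likewise had MDA-MB468 responses of -1.63 and -1.83 (TLR1) and -1.495 and -1.78 (TLR6).

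KLHL24 and CREBRF were induced in BT549 and split the states of MDA-MB468. KLHL24, a ubiquitin ligase adaptor for keratins, rose from 20.4 to 116 CPM and from 19.3 to 67.7 CPM in BT549, and in MDA-MB468 went from 16.8 to 22.6 CPM in parental but from 16.3 to 8.87 CPM in CE cells (difference 2.36 ± 0.43, adjusted p = 0.0451). CREBRF, a regulator of CREB3, rose from 16.7 to 130 CPM and from 16.6 to 79.0 CPM in BT549, and in MDA-MB468 had responses of 1.05 in parental and -1.07 in CE cells. The MDA-MB468 pairs of CREBRF thus lay on both sides of 0, and its difference missed the threshold (2.60 ± 0.63, adjusted p = 0.0933). CMYA5, a muscle cytoskeletal protein, had responses of 1.57 and 1.08 in BT549 and -0.80 and -1.41 in MDA-MB468 (difference 2.64 ± 0.33, adjusted p = 0.0230).

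**Figure D2:**
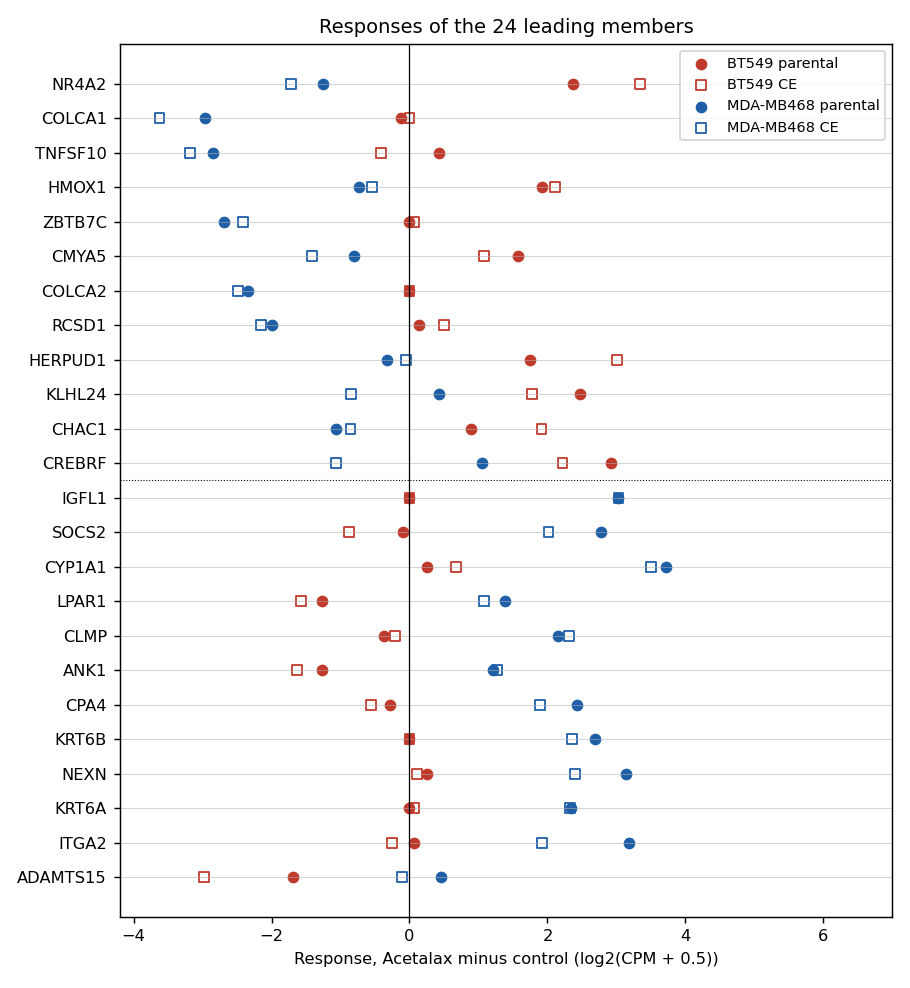
Responses (Acetalax minus control, log2(CPM + 0.5), x axis) of the 12 members of each direction with the largest smaller difference, a row per gene, with BT549 in red and MDA-MB468 in blue, parental cells as filled circles and CE cells as open squares. In the upper 12 genes, from NR4A2 to CREBRF, both red symbols lie to the right of both blue ones, and in the lower 12, from IGFL1 to ADAMTS15, to the left; symbols at 0 mark genes nearly without counts in BT549.

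On the MDA-MB468 side the clearest members had opposite responses from unequal starting levels. LPAR1, a receptor for lysophosphatidic acid, went from 1.02 to 3.46 CPM in parental and from 2.47 to 5.78 CPM in CE cells of MDA-MB468, and from 69.7 to 28.6 CPM and from 61.9 to 20.5 CPM in BT549. ANK1, an ankyrin that ties membrane proteins to spectrin, went from 1.00 to 2.98 CPM and from 1.44 to 4.18 CPM in MDA-MB468, and from 63.3 to 26.1 CPM and from 121 to 38.6 CPM in BT549. In both genes every BT549 library stayed above every MDA-MB468 library while the gap shrank. The differences were -2.90 ± 0.26 for LPAR1 (adjusted p = 0.0115) and -3.01 ± 0.24 for ANK1 (adjusted p = 0.0112).

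PLEC and STK10 were members at high levels in both lines. PLEC encodes plectin, a large linker of intermediate filaments to adhesion sites, and rose in MDA-MB468 from 417 to 1324 CPM and from 570 to 1251 CPM. It fell in BT549 from 1047 to 728 CPM and from 1503 to 790 CPM, so treated MDA-MB468 libraries passed treated BT549 libraries (difference -2.13 ± 0.20, adjusted p = 0.0115). STK10, a kinase that phosphorylates proteins of the ERM family, crossed in the same way, from 36.8 to 75.3 CPM and from 44.7 to 76.7 CPM in MDA-MB468 and from 90.9 to 45.2 CPM and from 91.1 to 43.8 CPM in BT549. Its controls and its treated libraries each separated by line, in reversed order (difference -1.94 ± 0.17, adjusted p = 0.0115). RIN1, an effector of RAS, and EEPD1, a nuclease of stalled replication forks, also had opposite responses, with differences of -2.27 ± 0.23 (adjusted p = 0.0115) and -1.94 ± 0.24 (adjusted p = 0.0214).

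**Figure D3:**
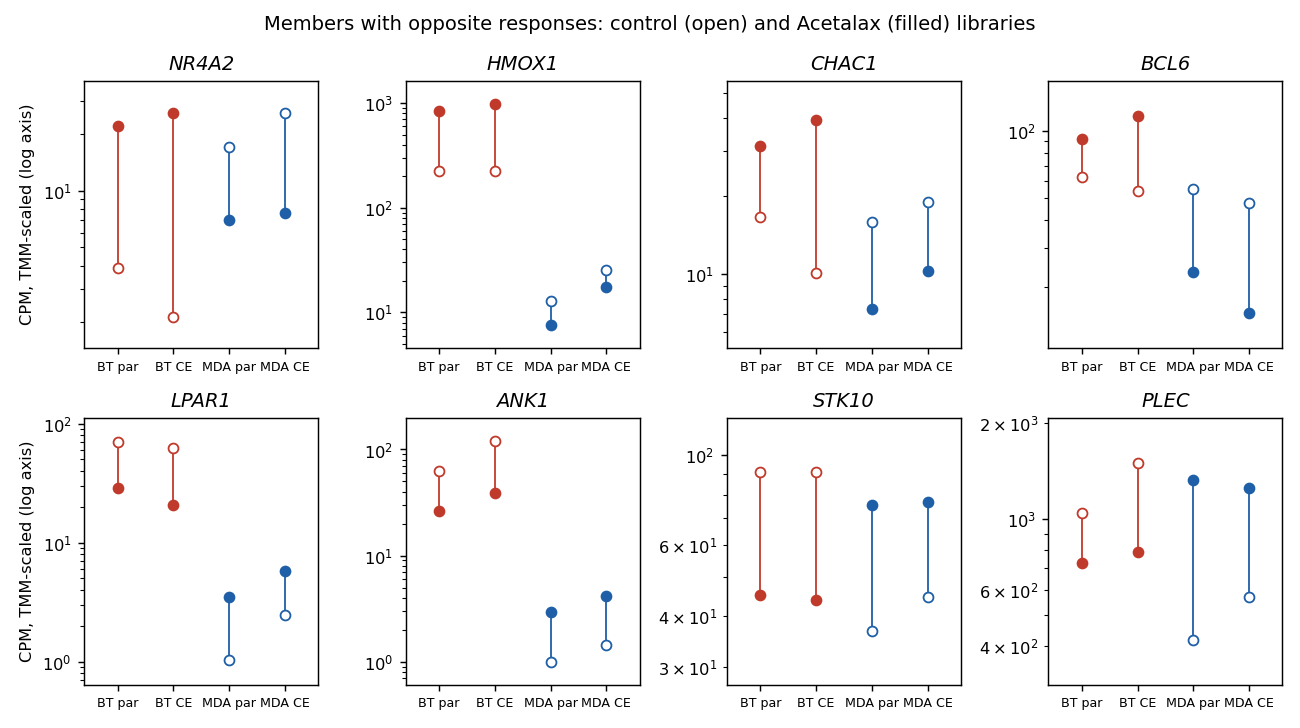
CPM (TMM-scaled, log axis) of 8 members with opposite responses in the control (open circle) and Acetalax (filled circle) library of parental (par) and CE cells of BT549 (BT, red) and MDA-MB468 (MDA, blue), each point being 1 library. In NR4A2, HMOX1, CHAC1 and BCL6 the filled circle is above the open circle in BT549 and below it in MDA-MB468, and in LPAR1, ANK1, STK10 and PLEC it is the other way round.

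Other members rose in MDA-MB468 with little movement in BT549. CLMP, an adhesion molecule of cell junctions, went from 1.10 to 6.61 CPM and from 3.89 to 21.3 CPM in MDA-MB468 and from 203 to 158 CPM and from 300 to 259 CPM in BT549 (difference -2.79 ± 0.17, adjusted p = 0.00283). CPA4, a secreted carboxypeptidase, went from 48.0 to 261 CPM and from 106 to 392 CPM in MDA-MB468 and from 9.21 to 7.49 CPM and from 53.7 to 36.2 CPM in BT549 (difference -2.61 ± 0.22, adjusted p = 0.0112). CYP1A1, a monooxygenase induced through the aryl hydrocarbon receptor, had all 4 responses above 0, at 3.72 and 3.50 in MDA-MB468 against 0.25 and 0.68 in BT549 (difference -3.09 ± 0.30, adjusted p = 0.0115).

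SOCS2, a feedback inhibitor of cytokine receptors, had responses of 2.77 and 2.02 in MDA-MB468 and -0.09 and -0.88 in BT549 (difference -3.26 ± 0.44, adjusted p = 0.0291). NEXN, an actin-binding protein, had 3.13 and 2.40 in MDA-MB468 and 0.25 and 0.10 in BT549 (difference -2.77 ± 0.34, adjusted p = 0.0214). MAMLD1, a transcriptional co-activator, had 1.97 and 1.52 in MDA-MB468 and -0.61 and -0.55 in BT549 (difference -2.37 ± 0.21, adjusted p = 0.0115). All 3 were thus raised in both MDA-MB468 pairs, by less in CE than in parental cells. AKAP12, a scaffold of protein kinase A, had the same sign, but its MDA-MB468 controls held 0.174 and 0.0206 CPM, so its fitted difference of -5.32 ± 0.45 (adjusted p = 0.0112) depends on the scale; on log2(CPM + 0.5) it was -3.22 in parental and -1.97 in CE cells. ADAMTS15, a metalloprotease of the matrix, became a member through BT549, where it went from 49.3 to 14.9 CPM and from 81.7 to 9.97 CPM. In MDA-MB468 it held at most 0.402 CPM, and its line difference missed the threshold (adjusted p = 0.125).

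The keratin genes KRT6A, KRT6B, KRT17 and KRT23 were members through their rise in MDA-MB468. KRT6A went from 4.34 to 24.1 CPM in parental and from 9.60 to 50.3 CPM in CE cells (adjusted p of the MDA-MB468 response 0.00331), and KRT6B from 10.8 to 72.6 CPM and from 4.22 to 23.6 CPM (adjusted p = 0.0031). Both belong to a family of near-identical keratins, so reads may be split between them. KRT17 went from 351 to 1188 CPM and from 246 to 1076 CPM (adjusted p = 0.00134) and KRT23 from 202 to 504 CPM and from 187 to 505 CPM (adjusted p = 0.00331). None of the 4 exceeded 0.319 CPM in BT549, and none passed the test of the line difference. KRT75, the neighbour of KRT6B on chromosome 12, was also a member, with responses of 3.73 and 3.07.

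Not all epithelial genes moved this way. EHF, an epithelial ETS factor, was a member higher in BT549 because it went from 364 to 116 CPM and from 397 to 124 CPM in MDA-MB468. Of 32 epithelial markers tested, 7 rose and 4 fell in MDA-MB468 (4.23% and 2.41% of all genes tested). In BT549, 1 rose and 9 fell (5.72% and 7.27%). The list's median difference was -0.29 in parental and -0.35 in CE cells. The other transcripts of this kind included IGFL1, a secreted insulin growth factor-like protein, at 1.51 and 15.7 CPM in parental and 2.39 and 23.1 CPM in CE cells of MDA-MB468. ITGA2, the collagen-binding integrin alpha 2, went from 13.1 to 123 CPM and from 24.4 to 93.5 CPM there and held at most 0.242 CPM in BT549. Neither IGFL1 nor ITGA2 passed the test of the line difference (ITGA2, adjusted p = 0.221).

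Targets of YAP gave 2 members among 16 tested, both higher in MDA-MB468. F3, the tissue factor that starts coagulation, went from 45.1 to 813 CPM and from 118 to 556 CPM in MDA-MB468. In BT549 it stayed between 0.267 and 0.800 CPM, and its line difference missed the threshold (adjusted p = 0.206). AMOTL1, an angiomotin that binds YAP, had responses of 1.00 and 0.26 in MDA-MB468 and -0.55 and -0.87 in BT549 (difference -1.35 ± 0.26, adjusted p = 0.0495, and 0.142 without the parental MDA-MB468 pair). In MDA-MB468, 8 of the 16 targets rose (4.23% of all genes tested). In BT549, 4 rose and 1 fell (5.72% and 7.27%). The median difference of the 16 was -0.84 in parental and -0.31 in CE cells. SRF and actin targets held no member among 19 tested. Yet edgeR called 4 of them higher in MDA-MB468, and DESeq2 called 5 (1.25% and 3.47% of all genes tested). Their median difference was -0.53 in parental and -0.43 in CE cells. Of these targets, 11 rose in MDA-MB468 and 3 in BT549 (4.23% and 5.72%).

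TNFAIP3, the ubiquitin-editing inhibitor of NF-kB known as A20, rose in both lines but more in MDA-MB468, from 4.46 to 69.1 CPM and from 4.94 to 44.2 CPM, than in BT549, from 25.9 to 49.9 CPM and from 11.1 to 43.6 CPM. It was the only member among 19 NF-kB targets (difference -2.10 ± 0.39, adjusted p = 0.0469, and 0.118 without the parental MDA-MB468 pair), and the list's median difference was -0.37 in parental and 0.50 in CE cells. Chemokines and cytokines held 0 members of 16 tested. IFIT5 was the only member of 33 interferon-stimulated genes, with responses of -1.64 and -1.52 in BT549 and -0.39 and 0.16 in MDA-MB468 (adjusted p = 0.0452, and 0.101 without the MDA-MB468 CE pair). Within the lines, 12 of these genes fell in BT549 and 8 in MDA-MB468 (7.27% and 2.41% of all genes tested).

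WNT and Notch genes were divided between the directions, with 4 members higher in BT549 and 2 higher in MDA-MB468 of 25 tested. WNT5A, a non-canonical ligand, had responses of 1.06 and 0.74 in MDA-MB468 and -1.21 and -1.25 in BT549 (difference -2.28 ± 0.26, adjusted p = 0.0205). JAG1, a Notch ligand, went from 13.2 to 6.06 CPM and from 29.0 to 4.50 CPM in BT549 and from 54.3 to 86.2 CPM and from 47.3 to 42.5 CPM in MDA-MB468 (adjusted p = 0.0772). FZD7, a WNT receptor, rose in BT549 from 47.7 to 103 CPM and from 25.5 to 110 CPM, with responses of -0.25 and -0.44 in MDA-MB468 (difference 1.96 ± 0.31, adjusted p = 0.0398, and 0.0573 without the parental MDA-MB468 pair). FZD8, a second receptor, rose in BT549 (adjusted p of that response 0.0123), from 29.6 to 113 CPM and from 10.7 to 98.1 CPM, and did not exceed 0.582 CPM in MDA-MB468. The line difference of FZD8 did not pass the test (adjusted p = 0.405). AXIN2 and HEY1, named after their values were seen, are feedback targets of WNT and Notch; AXIN2 had responses of -1.70 and -1.07 in MDA-MB468 and HEY1 of 1.06 and 1.56 in BT549.

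Among TGF-beta targets 2 of 20 tested were members, in opposite directions. SKIL, an inhibitor of SMAD factors, rose in BT549 with responses of 1.34 and 2.08 against 0.33 and -0.10 in MDA-MB468 (difference 1.60 ± 0.27, adjusted p = 0.0421, and 0.0701 without the MDA-MB468 CE pair). ID3, an inhibitor of helix-loop-helix factors, had 1.16 and 0.86 in MDA-MB468 and -0.35 and -1.10 in BT549 (difference -1.75 ± 0.25, adjusted p = 0.0335, and 0.0604 without the parental MDA-MB468 pair). Of 32 hypoxia and glycolysis genes, ADM and ANGPTL4 were members, both higher in MDA-MB468. ADM, the vasodilator peptide adrenomedullin, went from 6.64 to 47.3 CPM and from 13.1 to 36.4 CPM there and from 25.1 to 27.9 CPM and from 32.0 to 36.7 CPM in BT549 (adjusted p = 0.0580). ANGPTL4, an inhibitor of lipoprotein lipase, had a difference of -1.93 ± 0.36 (adjusted p = 0.0472, and 0.202 without the MDA-MB468 CE pair).

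Replication-dependent histone genes gave 4 members of 13 tested, all higher in BT549, in libraries selected for polyadenylated RNA. HIST1H2BD went from 11.1 to 4.46 CPM and from 17.4 to 8.33 CPM in MDA-MB468 and from 11.6 to 16.0 CPM and from 5.75 to 7.05 CPM in BT549 (difference 1.56 ± 0.25, adjusted p = 0.0398, and 0.0951 without the parental MDA-MB468 pair). It was the only gene of the list that passed the test, and DESeq2 called 5 higher in BT549 (0.533% and 1.31% of all genes tested). HIST1H2BC, which overlaps HFE on the opposite strand, HIST1H2BJ and HIST1H4H missed it, with adjusted p from 0.0526 to 0.0894. The list's median difference was 0.89 in parental and 0.57 in CE cells. Genes of mitosis had a median difference of 0.67 in parental but -0.18 in CE cells, so their order turned with the state, and CKS2, a subunit of cyclin-dependent kinases, was the only member of 36 (difference 1.18 ± 0.21, adjusted p = 0.0426, and 0.166 without the parental MDA-MB468 pair).

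Single members came from further lists. BBC3, the BH3-only protein PUMA, had responses of 1.07 and 1.56 in BT549 and -0.10 and -0.16 in MDA-MB468 (adjusted p = 0.0452, and 0.101 without the parental MDA-MB468 pair) and was the only member among 26 cell cycle inhibitors and p53 targets. EPGN, a ligand of EGFR, had 1.65 and 1.49 in MDA-MB468 at no more than 3.85 CPM (adjusted p = 0.152) and was the only one of 24 MAPK feedback genes and EGFR ligands. NPAS2, a factor of the circadian clock, rose in MDA-MB468, from 7.80 to 47.9 CPM and from 10.5 to 40.3 CPM, with under 1 CPM in BT549. Its line difference missed the threshold (adjusted p = 0.138). TIMP3, an inhibitor of metalloproteases, passed the test (difference 1.16 ± 0.18, adjusted p = 0.0376), but its BT549 level was 0.0944 and 0.145 CPM in parental and 962 and 1006 CPM in CE cells, and without the BT549 CE pair the adjusted p was 0.426. From the blood and vessel list CD14 (adjusted p = 0.0587) and CDH5, the latter without counts in BT549, were members. CD14 went from 44.2 to 19.9 CPM in parental and from 12.6 to 6.04 CPM in CE cells of MDA-MB468. In BT549, CD14 lay between 0.732 and 2.69 CPM. CDH5 went from 0.695 to 3.14 CPM and from 3.54 to 7.65 CPM in MDA-MB468. The part of other cell types in these values was not tested, and CD3E and HBB had no counts in any library.

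**Figure D4:**
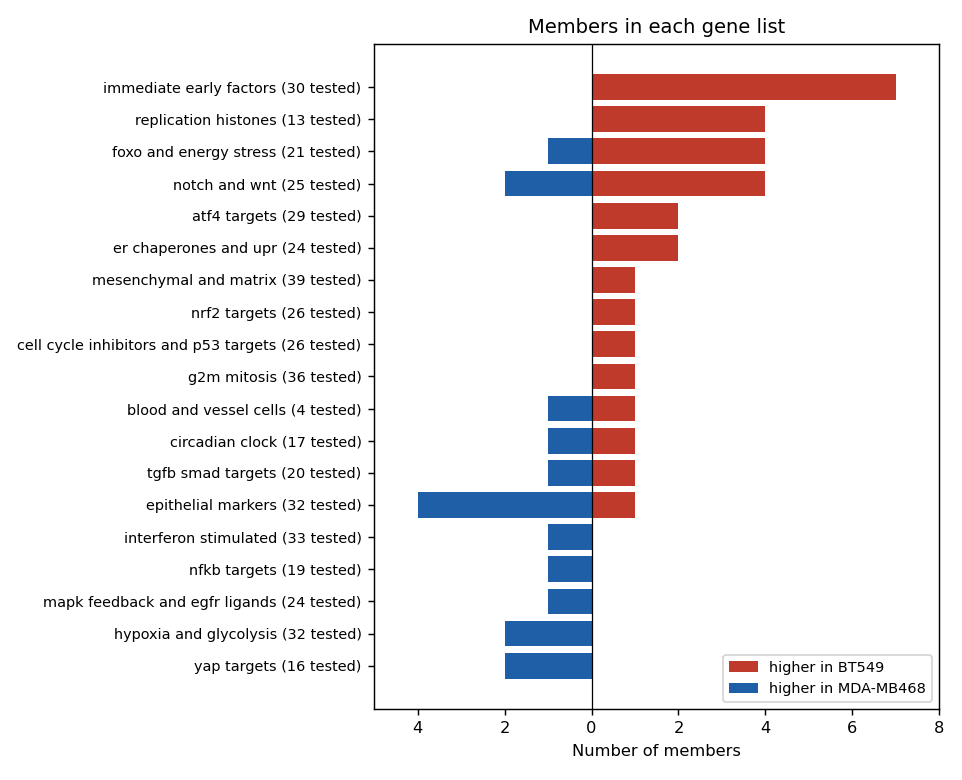
Number of members (x axis) in each of the 19 gene lists that held any, higher in BT549 to the right in red and higher in MDA-MB468 to the left in blue, with the number of genes tested beside each list. Immediate early factors held 7 members on the BT549 side alone, and epithelial markers 4 on the MDA-MB468 side and 1 on the other.

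The lists together held 48 of the 451 members, and 9 of 28 lists held none. Among the latter were sterol and fatty acid synthesis, heat shock chaperones, genes of DNA replication, MYC targets and ribosome biogenesis, ion and volume transport and the mitochondrial-encoded genes. TRPM4 itself was no member. It was at 20.1 and 15.2 CPM in parental and at 32.8 and 23.7 CPM in CE cells of BT549, and at 46.0 and 46.7 CPM and 54.7 and 56.3 CPM in MDA-MB468, before and after Acetalax. The difference of -0.47 ± 0.18 did not pass the test (adjusted p = 0.238), which does not show that the lines responded alike. These values are of RNA alone. The study's Western blots found TRPM4 protein nearly absent in the CE cells of both lines, while it reported their transcripts as unchanged.

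Promoters of the members were searched for 4 short motifs, on both strands, in the RefSeq window of 250 bases before to 50 bases after the start (GRCh38.p14), found for 117 of the 166 members higher in BT549, 212 of the 285 higher in MDA-MB468 and 10681 of all 14030 genes. The AP-1 motif TGANTCA was present in 13.7% of the promoters of members higher in BT549 (16 of 117), in 7.08% of those higher in MDA-MB468 (15 of 212) and in 4.62% of all. The cAMP response element TGACGTCA was present in 4.27%, 2.36% and 3.28%, the kappaB motif GGANTTTCC in 1.71%, 1.42% and 1.70%, and the E-box CACGTG in 8.55%, 6.60% and 9.80%. A match is a description of the letters and no evidence that a factor bound. The 250 bases before the start are printed for 4 named members with an AP-1 motif, KLHL24 and COLCA1 from the BT549 side and CPA4 and F3 from the MDA-MB468 side, to show how the motif lies in genes that moved in different lines. Capitals mark AP-1 motifs and, in F3, also a kappaB motif (the last run of capitals).
KLHL24, chr3:183635373-183635622, plus strand: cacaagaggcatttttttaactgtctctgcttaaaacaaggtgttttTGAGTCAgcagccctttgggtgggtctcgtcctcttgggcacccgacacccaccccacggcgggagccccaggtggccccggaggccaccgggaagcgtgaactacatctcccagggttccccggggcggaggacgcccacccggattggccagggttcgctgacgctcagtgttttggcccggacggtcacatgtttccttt
COLCA1, chr11:111305049-111305298, minus strand: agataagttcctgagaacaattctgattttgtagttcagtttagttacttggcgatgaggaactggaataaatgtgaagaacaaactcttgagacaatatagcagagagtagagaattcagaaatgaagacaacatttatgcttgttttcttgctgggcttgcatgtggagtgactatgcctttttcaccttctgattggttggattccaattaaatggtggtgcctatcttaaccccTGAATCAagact
CPA4, chr7:130292911-130293160, plus strand: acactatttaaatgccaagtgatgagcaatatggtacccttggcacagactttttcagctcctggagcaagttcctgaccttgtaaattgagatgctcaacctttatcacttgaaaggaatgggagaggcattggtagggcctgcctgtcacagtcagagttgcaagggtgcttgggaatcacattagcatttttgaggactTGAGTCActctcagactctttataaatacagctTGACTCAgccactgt
F3, chr1:94541760-94542009, minus strand: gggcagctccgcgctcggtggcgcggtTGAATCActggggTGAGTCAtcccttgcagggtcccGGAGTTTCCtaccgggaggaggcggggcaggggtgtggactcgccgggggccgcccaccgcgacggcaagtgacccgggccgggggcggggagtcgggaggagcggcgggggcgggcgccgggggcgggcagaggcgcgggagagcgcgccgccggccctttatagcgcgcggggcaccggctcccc

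In KLHL24, which rose in both BT549 pairs, and in COLCA1, which fell in both MDA-MB468 pairs, the motif occurred 1 time in these 250 bases. CPA4 and F3, which rose in both MDA-MB468 pairs, had 2 AP-1 motifs each. The motif was thus present in members that rose and in members that fell.

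The threshold of 1 lay within a continuous range of differences. Just inside it were SKIL, TRIM35, AC016747.3, CAPN8 and PDE4D, whose smaller difference was between 1.001 and 1.006. Just outside were AC006273.5, SLC19A3, MXD1, SCLY and NEK10, with 0.9951 to 0.9995. Of these 10 genes, edgeR called SKIL, TRIM35 and PDE4D among the former and MXD1 among the latter, and each of these 4 calls was lost when a pair of MDA-MB468 was left out, with the adjusted p rising to between 0.0701 and 0.128.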

How the data were processed

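The authors selected polyadenylated RNA, made libraries with a directional kit, aligned reads to hg19 with STAR and counted them per gene; the strand column and annotation are not given in the sources used here. The deposited counts were raw whole numbers without normalization, in 58154 rows for 55679 gene identifiers; 1392 repeated identifiers were kept 1 time each (3 had differing counts), and 28 symbols turned into dates were restored. No column was left unused (0). Library totals were 42261122 to 54241728.

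All 8 libraries were fitted with edgeR 4.0.16 (R 4.3.3; TMM, filterByExpr, glmQLFit), with 4 intercepts for line and state and 1 Acetalax term per line, leaving 2 residual degrees of freedom (common dispersion 0.0184). The contrast was the BT549 minus the MDA-MB468 term, adjusted by Benjamini-Hochberg at 0.05; DESeq2 1.42.0 was an alternative. Each pair of libraries was also left out in turn. On simulated counts the test was checked for the recovery of known changes.

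Named genes were the 12 members per direction with the largest smaller difference and at least 5 CPM, up to 6 opposite members, up to 4 members per gene list, the 10 genes of lowest p, TRPM4, and 5 genes on either side of the threshold; genes named otherwise (ATF3, FOS, AXIN2, HEY1, EHF, the flanking genes C11orf53, POU2AF1 and KRT75, and TLR1 and TLR6) were chosen after their values were seen. Results for 1 further named gene are left out. Members and gene lists were chosen with earlier results of these data known.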

Additional observations from a re-analysis of the deposited data

Results flagged for a closer look

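Of the named genes, 44 had a response that differed between BT549 and MDA-MB468 cells by the test of the difference itself (edgeR's quasi-likelihood test over all genes, adjusted p under 0.05), and for each of them the fitted BT549 response minus the fitted MDA-MB468 response is given on the log2 scale. Among immediate early and stress genes the difference was NR4A2 4.60, NR4A1 1.97, EGR2 3.03, FOSB 1.73, HMOX1 2.68, HERPUD1 2.58, XBP1 1.46, CHAC1 2.43 and ASNS 2.69. Among various other genes of signalling and transcription control that were higher in BT549 it was PIK3IP1 3.21, BCL6 2.28, TSC22D3 2.01, FZD7 1.96, SKIL 1.60, MXD1 1.52 and PDE4D 2.18. For those higher in MDA-MB468 it was SOCS2 -3.26, IRS1 -1.83, ID3 -1.75, WNT5A -2.28, LPAR1 -2.90, RIN1 -2.27, TNFAIP3 -2.10 and AMOTL1 -1.35. For genes of the cell cycle, cell death, histones and matrix it was BBC3 1.51, CKS2 1.18, HIST1H2BD 1.56 and TIMP3 1.16. For genes of the cytoskeleton, adhesion and membrane it was CMYA5 2.64, KLHL24 2.36, RCSD1 7.82, PLEC -2.13, NEXN -2.77, ANK1 -3.01, CLMP -2.79, AKAP12 -5.32 and STK10 -1.94. The remaining values were TRIM35 -1.14, IFIT5 -1.58, ANGPTL4 -1.93, EEPD1 -1.94, MAMLD1 -2.37, CPA4 -2.61 and CYP1A1 -3.09.

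The value of RCSD1 rests on a line without counts in its controls. Of the 44 genes, 24 passed the threshold without each of the 4 pairs in turn. MXD1 was no member, since its parental difference lay just under 1. Each value comes from 2 pairs of libraries per line, and no explanation was tested. Most of these genes were named by the size or p of their difference in the same libraries, so their passing adds no support.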

How the results depend on the processing

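The number of genes whose response differed between the lines, 351, became 941 with DESeq2, 1632 with every gene that had a count, 25 among genes of at least 5 CPM, and 100 to 1360 when a pair of libraries was left out; it was 467 with DESeq2's size factors and 463 with total counts. The count for BT549, 2558, became 4181, 1670 and 656 to 3757 with every gene, with genes of at least 5 CPM and without a pair, and that for MDA-MB468, 1307, became 2945, 638 and 114 to 3543. A left-out pair leaves its line with a single pair, assumed to vary like the others, and 1 residual degree of freedom. Of the 351 genes, 341 were called with the same sign by DESeq2 (346 tested), 25 of 302 at 5 CPM, 82 without the parental and 190 without the CE pair of MDA-MB468, 340 without the parental and 337 without the CE pair of BT549, and 0 changed sign. Members higher in BT549 and in MDA-MB468, 166 and 285, became 60 and 117 on the study's log2(FPKM + 1) scale (56 and 113 shared), 101 and 173 with a pseudocount of 2 (100 and 169 shared) and 52 and 84 at a difference of 1.5. They became 100 and 222 at 5 CPM, and 215 and 375 with a pseudocount of 0.1. Total counts and DESeq2's size factors gave 163 and 315, and 155 and 296. The correlation of 0.46 was 0.47 with FPKM and with a pseudocount of 2, 0.45 with a pseudocount of 0.1 and 0.49 at 1 CPM. Of 44 named genes called, 16 missed the threshold without the parental MDA-MB468 pair, 10 without its CE pair, 2 without the BT549 CE pair, and 29 of 41 tested among genes of at least 5 CPM. The causes were not tested. Members need all 4 pairs, so they were not recomputed without one. With 1 library per condition, line, state and treatment together have no residual degree of freedom.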
